A study of Mus musculus with 40 samples.

Results

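Described here are 9 genes that interferon-gamma (IFN-γ) induces or that act in the recruitment of cells by IFN-γ-induced chemokines, out of the 14318 genes measured by RNA-sequencing in intraductal triple-negative breast cancer (TNBC) tumors of the mouse. They were chosen by name: the transcription factor Irf1, the GTPases Gbp2, Gbp3, Gbp7, Igtp and Irgm1, the chemokines Cxcl9 and Cxcl10, and their receptor Cxcr3. All 9 were measured in each of 39 primary tumors. The tumors grew in wild-type female BALB/c mice, lactating mothers that had received luciferase-expressing 4T1-luc or 66cl4-luc mammary carcinoma cells through the teat canal, and were removed at 5 w post-inoculation (p.i.). Mice of each model were left untreated or received intraperitoneal anti-PD-1 (an antibody of clone RMP1-14 that blocks the PD-1 receptor of T cells, 200 µg per mouse), chitin particles (1 mg per mouse) or both. The amounts are those of a single injection, and injections of both agents were repeated up to tumor removal. Each of these 8 groups held 5 tumors, apart from untreated 4T1 with 4, and no tumors were pooled. All mice were thus tumor-bearing, and each model rested on 1 cell line, so that what belongs to a model and what belongs to its cell line cannot be told apart. The age of the mice at tumor collection is not given in the labels. The study's methods state that the females were 8 w old when mated.

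IFN-γ is secreted chiefly by activated T cells and NK cells. It binds the receptor chains Ifngr1 and Ifngr2, the kinases Jak1 and Jak2 are then activated, and the signal reaches GAS elements in promoters, among them that of Irf1. Irf1 and relatives in turn bind ISRE elements. Guanylate-binding proteins (Gbp) and immunity-related GTPases (Igtp, also known as Irgm3, and Irgm1) are targets of this pathway that serve cell-autonomous defense, while Cxcl9 and Cxcl10 attract T cells and NK cells that carry Cxcr3.

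The known elements were looked up in the RefSeq promoter windows of the 9 genes (build GRCm38.p6, the same assembly as mm10). Searched on both strands of the part before the transcription start were GAS, spelled TTCNNNGAA, and the core of the ISRE, spelled GAAA, any 2 bases and GAAA, and the spellings can overlap. A GAS was present for 3 of 9 genes (Irf1, Gbp7 and Igtp), against 7.02% of 32851 windows. An ISRE core was present for 6 of 9 (Gbp2, Gbp3, Gbp7, Igtp, Irgm1 and Cxcl10), against 2.98%, and Gbp7 and Igtp held both, against 0.332%. Irf1 and Gbp3 each have another annotated start, whose window held neither spelling. A gene was counted with a match at either start, whereas the shares are per window. Neither spelling was found for Cxcl9 or Cxcr3, which says only that these letters were not in the window. The following stretches are shown because they carry a match in the inducer, in 3 GTPases and in a chemokine, 5′ to 3′ on the strand of the gene, with the matches in capitals. They lie at chr11:53769894-53769962, plus strand (Irf1), chr3:142620574-142620643, plus strand (Gbp2), chr3:142530200-142530322, plus strand (Gbp7), chr11:58199481-58199555, plus strand (Igtp) and chr5:92349063-92349132, minus strand (Cxcl10).
Irf1: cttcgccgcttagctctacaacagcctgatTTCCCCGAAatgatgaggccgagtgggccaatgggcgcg
Gbp2: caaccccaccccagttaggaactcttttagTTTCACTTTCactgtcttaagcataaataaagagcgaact
Gbp7: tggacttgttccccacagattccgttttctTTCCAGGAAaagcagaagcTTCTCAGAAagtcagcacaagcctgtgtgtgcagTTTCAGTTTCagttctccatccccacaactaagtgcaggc
Igtp: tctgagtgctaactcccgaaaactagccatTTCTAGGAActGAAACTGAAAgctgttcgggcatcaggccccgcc
Cxcl10: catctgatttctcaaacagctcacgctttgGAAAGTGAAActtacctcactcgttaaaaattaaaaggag
A match describes letters in the genome and not a bound site, and no binding was measured in these tumors.

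In this build, Gbp7 (chromosome 3, 142530336 to 142550151), Gbp3 (142560016 to 142573213) and Gbp2 (142620663 to 142638008) lie in a row on the plus strand. Irgm1 (48865245 to 48871420, minus strand), Irf1 (53770014 to 53778374, plus strand) and Igtp (58199556 to 58207592, plus strand) lie on chromosome 11. Cxcl9 (92321331 to 92328079) and Cxcl10 (92346638 to 92348889) are neighbors on the minus strand of chromosome 5, and Cxcr3 lies on the minus strand of chromosome X (101731535 to 101734147). Expression was counted over the exons of each gene.

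Values are given in 2 scales. The table holds variance-stabilized expression values on a log2 scale (VST), in which all tests were made, and from these the reads of each tumor were recovered and divided by the tumor's size factor to give normalized counts. The VST compresses low counts, so a difference in it understates the fold of the weaker genes. Total reads over the listed genes ran from 5105898 to 14800352 per tumor. The 9 genes had between 13 (Cxcr3, 66cl4) and 4998 (Gbp2, 4T1) reads in a tumor. In 66cl4, totals reached 8408913 in untreated tumors, 14800352 upon chitin and 13084865 upon chitin + anti-PD-1. As whole tumors were sequenced, fewer cells of a type and less RNA per cell cannot be told apart in any value below. Of all stretches of 75 bases in their transcripts, 11.4% of Gbp7 (with Gbp3 and the pseudogene Gm43802), 8.37% of Igtp (with Irgm2), 2.68% of Gbp3 (with Gbp7) and 0.983% of Gbp2 (with Gbp2b) also occurred in another gene. Reads from these stretches may have been lost or assigned to the wrong gene, so the levels of these 4 genes are less certain.

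The first comparison asked how the genes stood in the untreated tumors of both models. All 9 were lower in 66cl4 than in 4T1, and the differences ran from -1.28 (Cxcl10) to -2.86 (Igtp) on the VST scale, with a median of -2.04. All 9 passed an adjusted p of 0.05 (limma, Benjamini-Hochberg over 14318 genes), where 28.7% of all genes passed in this direction and 55.8% in either, with a median difference of -0.02. For each of the 9, every untreated 4T1 tumor was above every untreated 66cl4 tumor, which held for 22.3% of all genes.

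Irf1 is the transcription factor that relays the signal to later targets. Irf1 had 3057, 1526, 1656 and 3749.6 normalized counts in untreated 4T1 tumors 1, 2, 4 and 5, and 685, 702, 768, 850.1 and 729 in untreated 66cl4 tumors 1 to 5. Tumors 2 and 4 were the low ones in 4T1, and even these stood well apart from the 66cl4 tumors, which lay close together. The mean was 3.34-fold higher in 4T1, and the expression value differed by -1.50 ± 0.22 (SE) (limma, adjusted p = 6.16e-07).

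Gbp2 is a guanylate-binding GTPase. Gbp2 had 3726, 1249, 854 and 4474 normalized counts in untreated 4T1 tumors 1, 2, 4 and 5, and 293, 331, 405, 471 and 398 in untreated 66cl4 tumors 1 to 5. The 4T1 tumors fell into a high pair, tumors 1 and 5, and a low pair, tumors 2 and 4. The mean was 6.78-fold higher in 4T1, and the expression value differed by -2.15 ± 0.39 (SE) (limma, adjusted p = 2.25e-05). Gbp3, a neighbor of Gbp2 on chromosome 3, belongs to the same family. Gbp3 had 1543, 715, 701 and 2346 normalized counts in untreated 4T1 tumors 1, 2, 4 and 5, and 108, 113, 208, 237 and 147 in untreated 66cl4 tumors 1 to 5. Again tumors 1 and 5 were high in 4T1, and the groups did not overlap. The mean was 8.15-fold higher in 4T1, and the expression value differed by -2.25 ± 0.33 (SE) (limma, adjusted p = 4.76e-07). Gbp7 lies in the same cluster, and its annotated exons together cover the most bases of the Gbp genes described here. Gbp7 had 1848, 908, 1183 and 2393 normalized counts in untreated 4T1 tumors 1, 2, 4 and 5, and 238, 285, 318, 461 and 309.6 in untreated 66cl4 tumors 1 to 5. Tumor 4 of 66cl4 was the highest of its group, and it stayed below all 4T1 tumors. The mean was 4.91-fold higher in 4T1, and the expression value differed by -1.88 ± 0.27 (SE) (limma, adjusted p = 4.31e-07).

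Igtp encodes an immunity-related GTPase that regulates other members of its family on membranes. Igtp had 2747, 877, 685 and 3326 normalized counts in untreated 4T1 tumors 1, 2, 4 and 5, and 65.1, 101, 134, 167 and 145 in untreated 66cl4 tumors 1 to 5. It showed the largest difference of the 9 genes on the VST scale, with no overlap, while the fold of means was about the same for Cxcl9. The mean was 15.6-fold higher in 4T1, and the expression value differed by -2.86 ± 0.38 (SE) (limma, adjusted p = 7.85e-08). Irgm1 is another regulator of that kind, needed for the control of intracellular bacteria. Irgm1 had 2945, 991, 1007 and 2761 normalized counts in untreated 4T1 tumors 1, 2, 4 and 5, and 262, 296, 324, 374 and 368 in untreated 66cl4 tumors 1 to 5. The 4T1 tumors split into the same pairs as for Gbp2, while the 66cl4 tumors kept within a narrow range. The mean was 5.93-fold higher in 4T1, and the expression value differed by -2.04 ± 0.27 (SE) (limma, adjusted p = 1.06e-07).

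Cxcl9 is a chemokine that depends closely on IFN-γ. Cxcl9 had 1064, 317, 403 and 2619.9 normalized counts in untreated 4T1 tumors 1, 2, 4 and 5, and 46.3, 64.2, 49.2, 135 and 57.4 in untreated 66cl4 tumors 1 to 5. The 4T1 tumors differed widely among themselves, with tumor 5 far above tumor 2, and tumor 4 was the high one in 66cl4. The mean was 15.6-fold higher in 4T1, and the expression value differed by -2.42 ± 0.54 (SE) (limma, adjusted p = 0.000266). Without untreated 4T1 tumor 5, the mean of Cxcl9 was 8.44-fold higher in 4T1 and the difference was -1.90. Cxcl10 is also induced by type I interferons. Cxcl10 had 216, 100.1, 134 and 639.6 normalized counts in untreated 4T1 tumors 1, 2, 4 and 5, and 23.8, 32.1, 47.5, 61.8 and 38.7 in untreated 66cl4 tumors 1 to 5. Tumor 5 of 4T1 stood above the other tumors here as well, and the lowest 4T1 tumor was not far above the highest of 66cl4. The mean was 6.68-fold higher in 4T1, and the expression value differed by -1.28 ± 0.36 (SE) (limma, adjusted p = 0.00341). For Cxcl10, it was 3.68-fold higher without that tumor, with a difference of -0.89 (limma, adjusted p = 0.0401). Cxcr3, the receptor of both chemokines, is carried by activated T cells and NK cells. Cxcr3 had 345, 145, 114 and 209.7 normalized counts in untreated 4T1 tumors 1, 2, 4 and 5, and 17.5, 18.3, 17.6, 19.3 and 25.4 in untreated 66cl4 tumors 1 to 5. Its highest 4T1 value was in tumor 1, not in tumor 5 as for both ligands. The mean was 10.4-fold higher in 4T1, and the expression value differed by -1.45 ± 0.17 (SE) (limma, adjusted p = 4.78e-09).

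**Figure D1:**
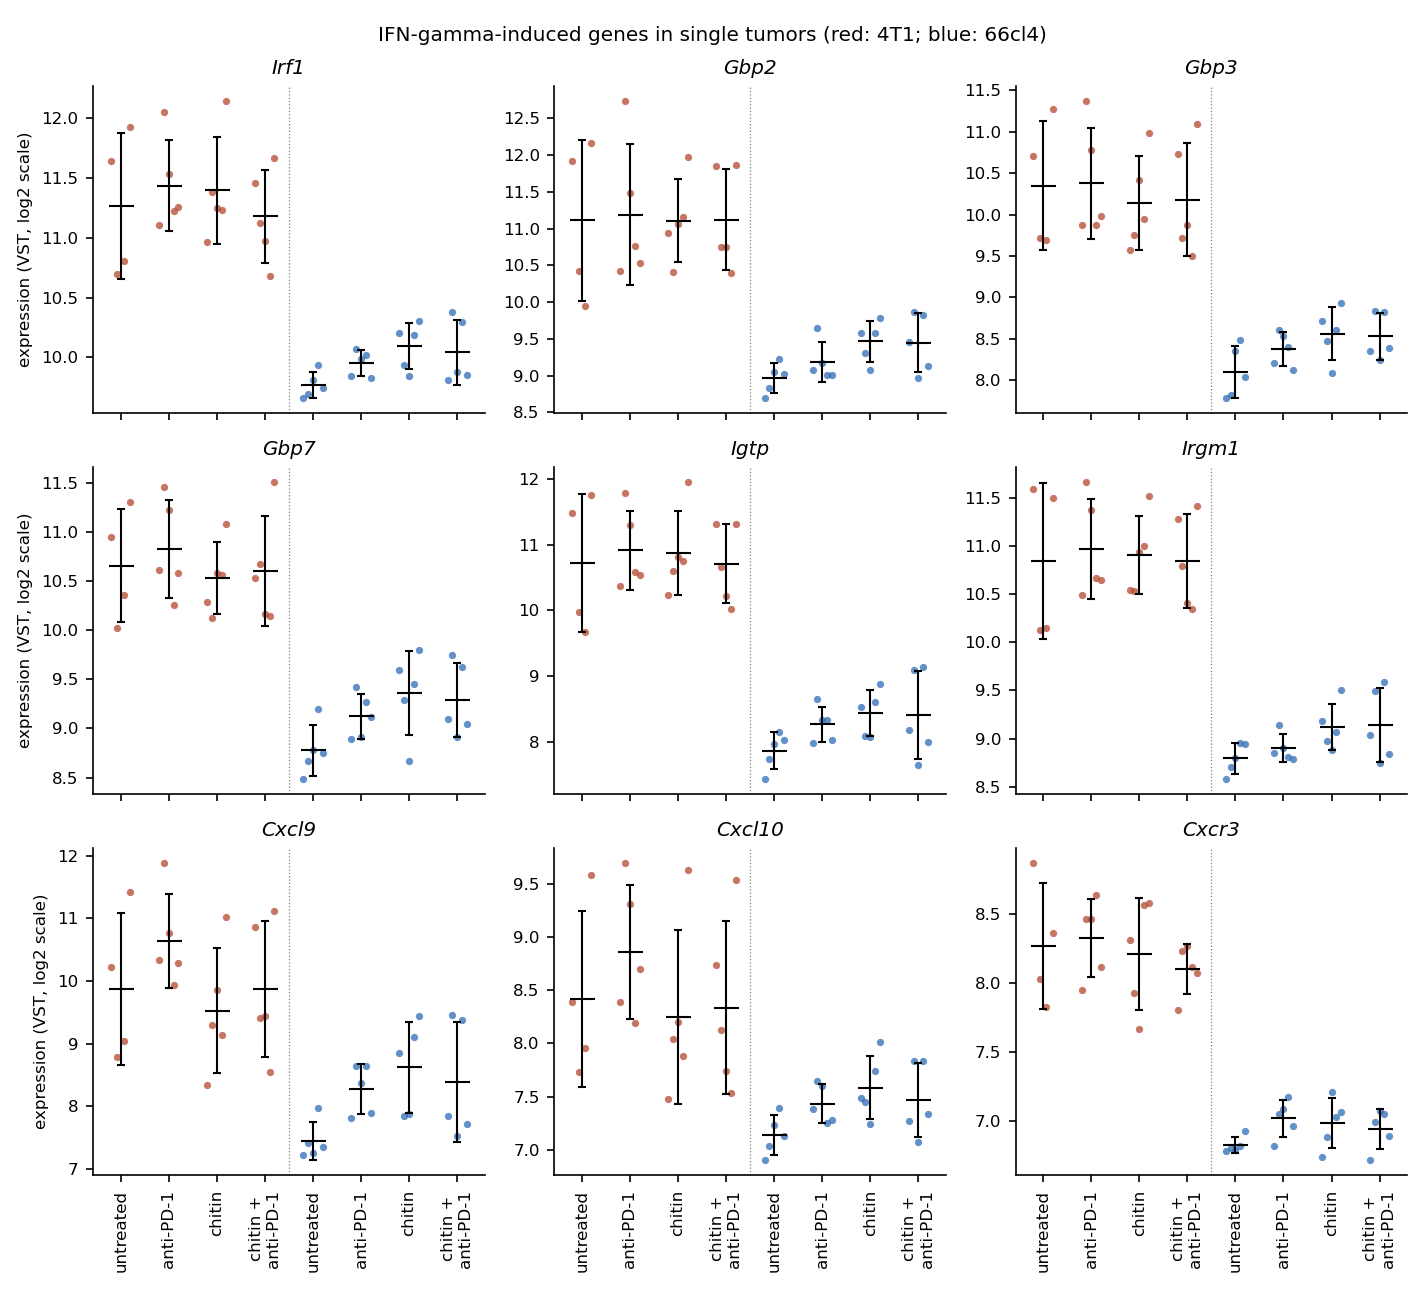
Expression of the 9 genes (VST, log2 scale) in each of 39 tumors, by treatment group, with 4T1 in red and 66cl4 in blue; bars show the mean ± SD of the 4 or 5 tumors of a group. For 7 of the 9 genes all 19 4T1 tumors lie above all 20 66cl4 tumors, while Cxcl9 and Cxcl10 overlap between the models.

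The same held over the 4 treatments. All 9 genes were lower in 66cl4, with differences from -1.06 (Cxcl10) to -2.57 (Igtp), and all 9 passed the test, where 40.8% of all genes did so in this direction. For Cxcl9 the difference was -1.80 ± 0.26 (SE) (adjusted p = 1.09e-07, limma) and for Cxcr3 -1.28 ± 0.08 (SE) (adjusted p = 1.45e-16, limma). For 7 of 9 genes each of the 19 4T1 tumors was above each of the 20 66cl4 tumors, against 9.87% of all genes. The exceptions were Cxcl9 and Cxcl10, for which the lowest 4T1 tumors, such as chitin-treated tumor 1 with 203.9 and 70.2 normalized counts, lay below the highest 66cl4 tumors.

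**Figure D2:**
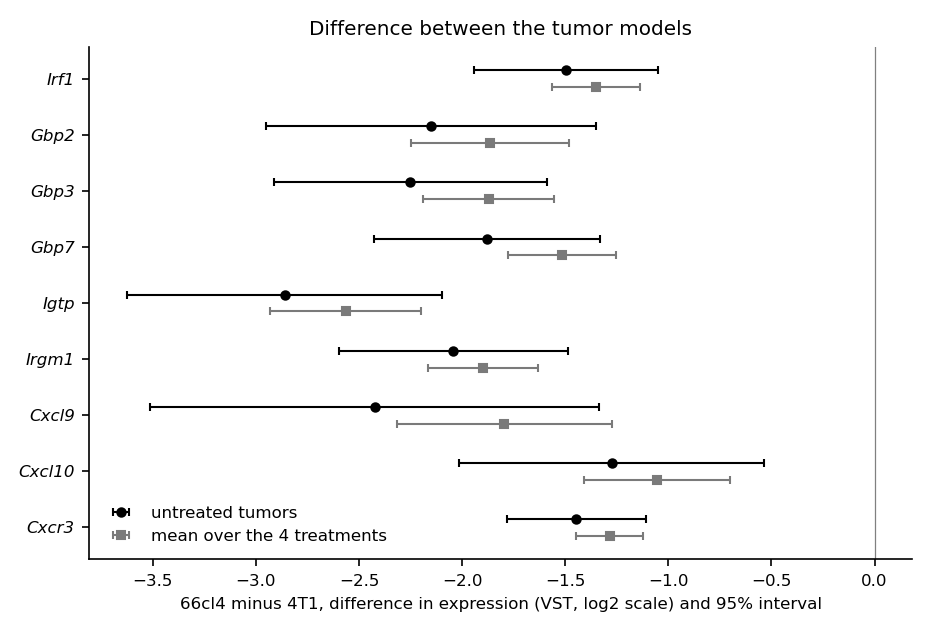
Difference between the models for each gene (66cl4 minus 4T1, VST, log2 scale), in untreated tumors (black circles) and as a mean over the 4 treatments (grey squares), with 95% intervals from limma. All 18 intervals lie below 0, and Igtp has the largest VST difference, -2.86 in untreated tumors.

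Upstream of these genes, the cytokine itself was also lower in untreated 66cl4 tumors. Ifng had 23, 3, 6 and 44 reads in untreated 4T1 tumors 1, 2, 4 and 5, and 0, 0, 1, 0 and 0 in untreated 66cl4 tumors 1 to 5 (VST difference -0.72 ± 0.15 (SE), adjusted p = 0.000125, limma). Of the receptor chains, Ifngr2 was lower, with a difference of -0.48 ± 0.17 (adjusted p = 0.0174, limma) while that of Ifngr1 was 0.28 ± 0.16 (adjusted p = 0.151, limma). For Socs1, a feedback inhibitor of the receptor, the difference was -0.23 ± 0.25 (adjusted p = 0.444, limma). Of 12 signaling genes, these 4 included, 8 were lower and 0 higher, with a median of -0.60. Of the other interferon-inducible GTPases 16 of 21 listed were measured, and all 16 were lower, with the largest differences for Tgtp1 (-3.50), Tgtp2 (-3.20) and Iigp1 (-3.03). All 15 further IFN-γ targets were lower too, with a median of -1.68, among them Nlrc5 (-2.77), the activator of MHC class I genes.

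Markers of several cell types differed between the untreated models at the same time. Of 8 T-cell markers 6 were lower in 66cl4, with a summed level of 50.1 to 148 normalized counts against 328 to 1190.0 in 4T1. All 8 epithelial markers were lower (3391 to 5193 against 16964 to 30990), whereas 4 of 8 macrophage markers were higher and 0 lower (22933 to 31954 against 14046 to 21074). Of 8 NK and cytotoxic markers 3 were lower and 2 higher (388 to 1215 against 273 to 1391). Of all genes, 28.7% were lower and 27.1% higher in this comparison. No marker of these 4 lists was at 0 in all tumors of either group. The part of these cell types in the lower values of the 9 genes was not tested.

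The order of the genes by level per kilobase of annotated exons, taken as the union of all exons of a gene, differed in part between the models. This union can be longer than the transcript that is expressed, so the order depends on the annotation. In 4T1 it was Gbp2, Igtp, Irf1, Cxcl9, Gbp3, Irgm1, Gbp7, Cxcl10 and Cxcr3, from 975 ± 599 (SD, n = 19) to 109 ± 38.4 normalized counts per kilobase. In 66cl4 it was Irf1, Gbp2, Igtp, Gbp7, Cxcl9, Gbp3, Irgm1, Cxcl10 and Cxcr3, from 222 ± 38.5 (SD, n = 20) to 15.6 ± 5.24. Neighbors in this order were often not apart. Gbp2 was above Igtp in 11 of 19 4T1 tumors, Cxcl9 above Gbp3 in 9 of 19 and Cxcl10 above Cxcr3 in 9 of 19. Cxcl9 was above Gbp3 in 7 of 20 66cl4 tumors and Gbp3 above Irgm1 in 11 of 20. Gbp7, in contrast, was above Cxcl10 in all 19 4T1 tumors and Gbp2 above Igtp in all 20 66cl4 tumors.

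The following comparisons asked what anti-PD-1, chitin and their combination did to the genes in 66cl4. The 3 treated groups were compared with the same 5 untreated tumors. None of the 9 genes passed an adjusted p of 0.05 in any of these comparisons (limma, with 0% of all genes passing, and 0 of 9 by limma-voom). At an unadjusted p under 0.05, it was 2 of 9 upon anti-PD-1 (Cxcl9 and Cxcr3), 8 of 9 upon chitin and 8 of 9 upon chitin + anti-PD-1 (in both all but Cxcr3), each higher than in untreated tumors. Of all genes, 2.8%, 6.17% and 5.77% were higher at that p. The 9 genes other than Cxcr3 varied together within the 66cl4 groups, with Pearson's r from 0.806 to 0.962 between pairs. Their counts are therefore not separate observations and cannot be weighed against these shares as such. All 9 genes had a higher mean VST value in each of the 3 treated groups, which held for 27.6% of all genes, and in 7 of 9 the chitin mean was the highest and the untreated mean the lowest (10.8%). For no gene were all tumors of a treated group above all untreated tumors (0.335%, 0.978% and 1.1% of all genes for anti-PD-1, chitin and both).

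The largest differences were those of Cxcl9, the ligand that attracts Cxcr3-bearing T cells. It had 46.3, 64.2, 49.2, 135 and 57.4 normalized counts in untreated tumors 1 to 5, 112, 277, 213, 276 and 124 upon anti-PD-1, 337, 118, 122, 425 and 568 upon chitin and 117, 580.1, 75.8, 541 and 99.3 upon chitin + anti-PD-1. Untreated tumor 4 lay within the range of every treated group, and upon chitin + anti-PD-1 tumors 2 and 4 stood far above the other three. Upon anti-PD-1 the mean was 2.84-fold that of untreated tumors, and the VST value differed by 0.83 ± 0.37 (SE) (adjusted p = 0.911, limma). Upon chitin it was 4.46-fold, with a difference of 1.18 ± 0.37 (SE) (adjusted p = 0.232, limma). Upon chitin + anti-PD-1 it was 4.01-fold, with a difference of 0.94 ± 0.37 (SE) (adjusted p = 0.375, limma). With all tumors thinned to the same number of reads, the chitin difference was 1.06, and on the log2 scale of limma-voom, which does not compress low counts, it was 1.99.

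Cxcl10 gave smaller differences in the same direction. It had 23.8, 32.1, 47.5, 61.8 and 38.7 normalized counts in untreated tumors 1 to 5, 60.3, 89.99, 84.4, 48.8 and 51.3 upon anti-PD-1, 70.9, 66.9, 47.8, 102 and 142 upon chitin and 50.4, 115, 34.4, 115 and 56.7 upon chitin + anti-PD-1. The highest chitin tumor was tumor 5, and tumors 2 and 4 led the combination group again. The chitin difference was 0.44 ± 0.15 (SE) (adjusted p = 0.264, limma). Cxcr3, their receptor, had the lowest counts of the 9 genes. It had 17.5, 18.3, 17.6, 19.3 and 25.4 normalized counts in untreated tumors 1 to 5, 19.3, 33.2, 35.6, 42.5 and 27.4 upon anti-PD-1, 15.4, 22.6, 45.2, 31.5 and 34.1 upon chitin and 14.3, 29.3, 34.4, 33.2 and 23.0 upon chitin + anti-PD-1. The groups overlapped, and the mean was highest upon anti-PD-1, with a difference of 0.20 ± 0.08 (SE) (adjusted p = 0.911, limma), as opposed to 0.16 ± 0.08 (SE) upon chitin (adjusted p = 0.490, limma).

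Among the GTPases, Igtp and Gbp7 had the largest chitin differences. Igtp had 65.1, 101, 134, 167 and 145 normalized counts in untreated tumors 1 to 5, 136, 279, 203, 201 and 146 upon anti-PD-1, 249, 155, 153, 269 and 348 upon chitin and 171, 419.6, 89.6, 438 and 140.3 upon chitin + anti-PD-1. Untreated tumor 1 was the lowest, and the combination group held the highest tumors, 2 and 4, as well as tumors 3 and 5, which lay within the untreated range. Upon chitin Igtp differed by 0.58 ± 0.24 (SE) (adjusted p = 0.359, limma) and Gbp7 by 0.58 ± 0.19 (SE) (adjusted p = 0.247, limma). Gbp2 had 293, 331, 405, 471 and 398 normalized counts in untreated tumors 1 to 5, 417, 674, 454, 393 and 389 upon anti-PD-1, 639, 506, 416, 635 and 756 upon chitin and 576, 801, 376, 779.8 and 438 upon chitin + anti-PD-1. Of its chitin-treated tumors, only tumor 3 lay within the untreated range, and the difference was 0.50 ± 0.17 (SE) (adjusted p = 0.263, limma). For Irf1, the untreated tumors ranged from 685 to 850.1 normalized counts and the chitin-treated ones from 794 to 1138 (difference 0.33 ± 0.11 (SE), adjusted p = 0.247, limma). The chitin difference was 0.47 ± 0.16 (SE) for Gbp3 (adjusted p = 0.269, limma) and 0.32 ± 0.14 (SE) for Irgm1 (adjusted p = 0.394, limma).

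**Figure D3:**
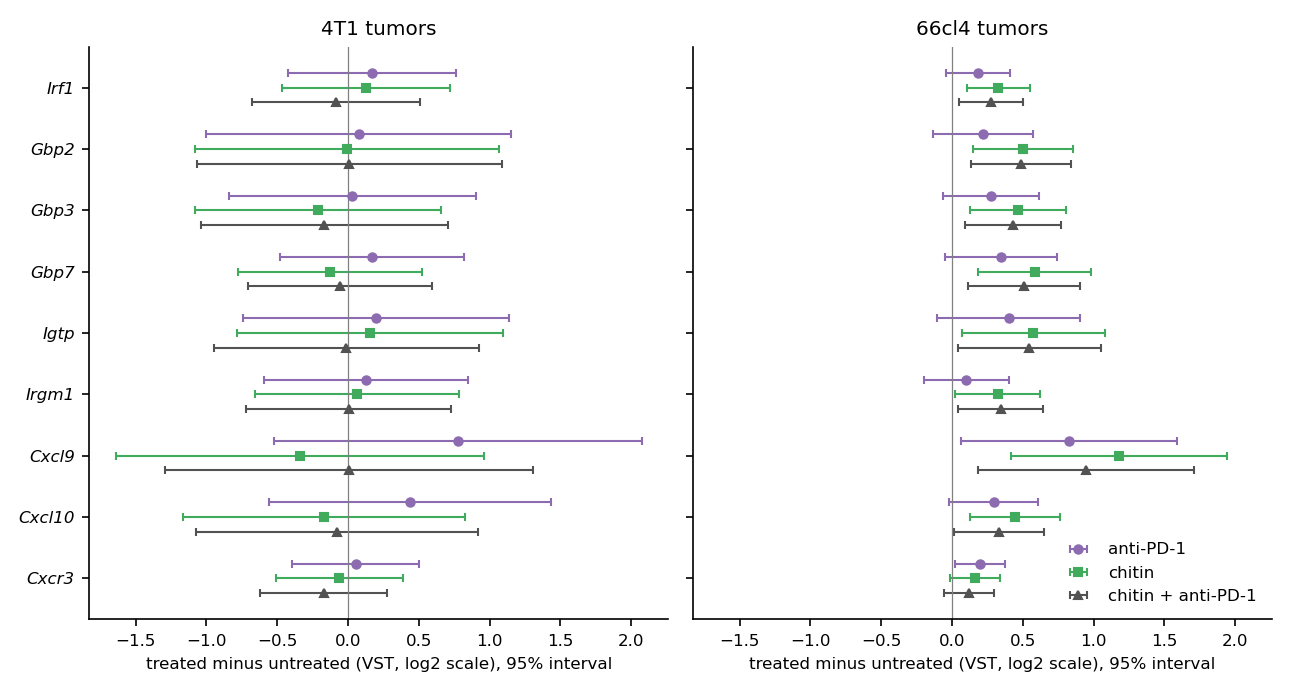
Difference of each treated group from untreated tumors of the same model (VST, log2 scale) with 95% intervals from limma, for anti-PD-1 (circles), chitin (squares) and chitin + anti-PD-1 (triangles). In 66cl4 all 27 differences are above 0 and Cxcl9 has the largest, whereas in 4T1 every interval spans 0; no difference passed the adjusted threshold.

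The pathway upstream gave no called difference in 66cl4 either. Ifng had 0, 0, 1, 0 and 0 reads in untreated tumors 1 to 5, 0, 4, 1, 2 and 2 upon anti-PD-1, 3, 1, 3, 6 and 4 upon chitin, and 2, 2, 0, 5 and 4 upon chitin + anti-PD-1. In 15 of 20 66cl4 tumors it was at or under 3 reads, the limit that a count of 0 allows, so its level was close to what this depth can detect. Its VST difference upon chitin was 0.24 ± 0.07 (SE, adjusted p = 0.232, limma) and that of Ifngr1 0.22 ± 0.09 (adjusted p = 0.335, limma). Ifngr2 differed by 0.14 and Socs1 by 0.16. Of the other IFN-γ-inducible GTPases, 14 of 16 had a higher value upon chitin, 5 of them at an unadjusted p under 0.05, and of the further targets 13 of 15 were higher. Among all genes, 49.9% had a higher value and 6.17% were higher at that p. The median difference was 0.40 and 0.27 in these lists, against 0.47 for the 9 genes.

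Other features moved alongside in 66cl4. Of 8 T-cell markers all had a higher value upon chitin, 4 of them at an unadjusted p under 0.05, with a summed level of 144 to 258 normalized counts against 50.1 to 148 in untreated tumors. Of 8 macrophage markers 7 were higher, 5 of them at an unadjusted p under 0.05 (33149.8 to 37826 against 22933 to 31954), and of 8 dendritic cell markers all were higher, 3 of them at that p (189.8 to 349 against 115 to 232). Of 8 NK and cytotoxic markers, in contrast, 3 were lower and 1 higher at that p (395 to 674 against 388 to 1215). Among all 14318 genes, 49.9% had a higher value upon chitin, 883 were higher at that p and 756 were lower. No marker of the 4 lists was at 0 in all tumors of a group. Totals of reads also reached higher in the chitin-treated tumors, as given above. With equal read depth all 27 differences from untreated tumors stayed above 0. Thinning only removes reads at random, so it does not address other features of the more deeply sequenced libraries. The part of these features and of cell content in the differences of the 9 genes was not tested.

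In 4T1, the same comparisons shared the 4 untreated tumors. None of the 9 genes passed the test for anti-PD-1, chitin or chitin + anti-PD-1 against untreated tumors (limma, with 0% of all genes passing, and 0 of 9 by limma-voom), and 0 of 9 had an unadjusted p under 0.05 (8.89%, 2.77% and 2.56% of all genes). The mean VST value upon anti-PD-1 was the highest of the 4 groups for all 9 genes, which held for 30.7% of all genes. Differences from untreated tumors ran from 0.03 ± 0.41 (SE, Gbp3) to 0.78 ± 0.62 (SE, Cxcl9). As most of the genes varied together among tumors, these are not 9 separate observations. Only for Irgm1 were the mean VST values of all 3 treated groups above that of untreated tumors (22.8% of all genes). Its difference upon chitin + anti-PD-1 was 0.005 ± 0.34 (SE).

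The spread among 4T1 tumors was wide. Cxcl9 had 1064, 317, 403 and 2619.9 normalized counts in untreated tumors 1, 2, 4 and 5, 1167, 3635, 1619, 856 and 1113 in tumors 1 to 5 upon anti-PD-1, 204, 502, 796, 437 and 1936 upon chitin and 1738, 554, 569, 253 and 2084 upon chitin + anti-PD-1. The lowest anti-PD-1-treated tumor was above 2 of 4 untreated tumors, yet untreated tumor 5 exceeded 4 of 5 anti-PD-1-treated ones. The anti-PD-1 difference was 0.78 ± 0.62 (SE), with a 95% interval -0.52 to 2.07 (adjusted p = 0.715, limma). Without untreated tumor 5 it was 1.29, and without untreated tumor 2 it was 0.41. The chitin difference was -0.34 ± 0.62 (SE) (adjusted p = 1, limma), and chitin + anti-PD-1 differed from anti-PD-1 alone by -0.77 ± 0.58 (SE) (adjusted p = 0.698, limma). The latter was -0.44 without combination tumor 4 and -0.46 without anti-PD-1-treated tumor 2.

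Cxcl10 had 216, 100.1, 134 and 639.6 normalized counts in untreated 4T1 tumors 1, 2, 4 and 5, 215, 699.9, 508, 175 and 294 in tumors 1 to 5 upon anti-PD-1, 70.2, 148, 176, 122 and 666 upon chitin and 303, 163, 102, 75.9 and 617 upon chitin + anti-PD-1. In each of the 4 groups 1 tumor reached about the same high level, and it was also the one with the most Cxcl9. The anti-PD-1 difference was 0.44 ± 0.47 (SE) (adjusted p = 0.792, limma), and it ranged from 0.21 without untreated tumor 2 to 0.83 without untreated tumor 5. Irf1, Gbp2, Gbp3, Gbp7, Igtp, Irgm1 and Cxcr3 overlapped in all 4 groups, and Gbp2 ranged from 1248 to 6689 normalized counts upon anti-PD-1, 1225 to 3884 upon chitin and 1214 to 3606 upon chitin + anti-PD-1.

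Ifng was measured well above the limit of detection in most 4T1 tumors, with 3 to 51 reads. Upon anti-PD-1 it had 23, 51, 49, 23 and 30 reads in tumors 1 to 5, as opposed to 3 to 44 in untreated, 4 to 25 in chitin-treated and 3 to 33 in chitin + anti-PD-1-treated tumors. The anti-PD-1 difference was 0.31 ± 0.19 (SE, adjusted p = 0.635, limma) for Ifng and 0.41 ± 0.34 (adjusted p = 0.725, limma) for Socs1, and Ifngr1 (0.23) and Ifngr2 (0.16) did not pass the test either. Alongside, 8 of 8 T-cell markers had a higher value upon anti-PD-1, 7 of them at an unadjusted p under 0.05, with a summed level of 812 to 2115 normalized counts against 328 to 1190.0. All 5 adipocyte markers were also higher at that p (6.69 to 9287 against 18.8 to 705), as were 7 of 8 dendritic cell markers (190.0 to 1227 against 170.4 to 699.9), all 3 measured B-cell markers (8.03 to 448 against 7.09 to 47.2) and all 3 measured markers of lactating epithelium (4.01 to 2825 against 4.73 to 216). Among all 14318 genes, 49.6% had a higher value upon anti-PD-1 and 647 were higher at that p. No marker of these lists was at 0 in all tumors of a group, and the part of these cell types in the values of the 9 genes was not tested.

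Whether the treatment differences themselves differed between the models was tested in 1 fit over all 8 groups. None of the 9 genes passed for anti-PD-1, chitin or chitin + anti-PD-1 (limma, 0% of all genes, and 0 of 9 by limma-voom). At an unadjusted p under 0.05 it was 0, 1 and 0 of 9 (7.27%, 6.88% and 5.46% of all genes). The 1 gene was Cxcl9, for which the chitin difference of 4T1 minus that of 66cl4 was -1.52 ± 0.74 (SE), with a 95% interval -3.02 to -0.03 (adjusted p = 0.723, limma). Without untreated 4T1 tumor 5 it was -1.003. All 9 genes had a chitin difference below that in 66cl4, as did 7175 of 14318 genes. Likewise, no gene of the 9 passed for chitin + anti-PD-1 against either single treatment, for the chitin-containing against the other groups, or for the interaction of chitin and anti-PD-1 within a model (limma, 0% of all genes, and 0 of 9 by limma-voom). At an unadjusted p under 0.05 the chitin-containing groups of 66cl4 differed from its other groups in 8 of 9 genes (all but Cxcr3), all higher, as were 7.79% of all genes. Because these 8 genes varied together among tumors, they are not 8 separate observations. In the other 7 of these comparisons it was 0 of 9. For chitin + anti-PD-1 against anti-PD-1 and against chitin, 9.13% and 3.11% of all genes passed that p in 4T1, and 8.3% and 3.07% in 66cl4. For the chitin-containing groups of 4T1 it was 7.28%, and for the interaction 4.53% in 4T1 and 4.99% in 66cl4.

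Among tumors of the same group, 8 of the 9 genes varied together. As a description, each value was set relative to the mean of its group, and the deviations were correlated over all 39 tumors. These share library, depth and tumor content, so no p is given. For the 28 pairs without Cxcr3, Pearson's r ran from 0.82 to 0.96, with a median of 0.91. For the 8 pairs of Cxcr3 it ran from 0.18 to 0.42, with a median of 0.31, and in 66cl4 alone from -0.03 to 0.25. In each of the 8 groups, the tumor with the most Cxcl9 was also the one with the most Gbp2 and Irf1.

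**Figure D4:**
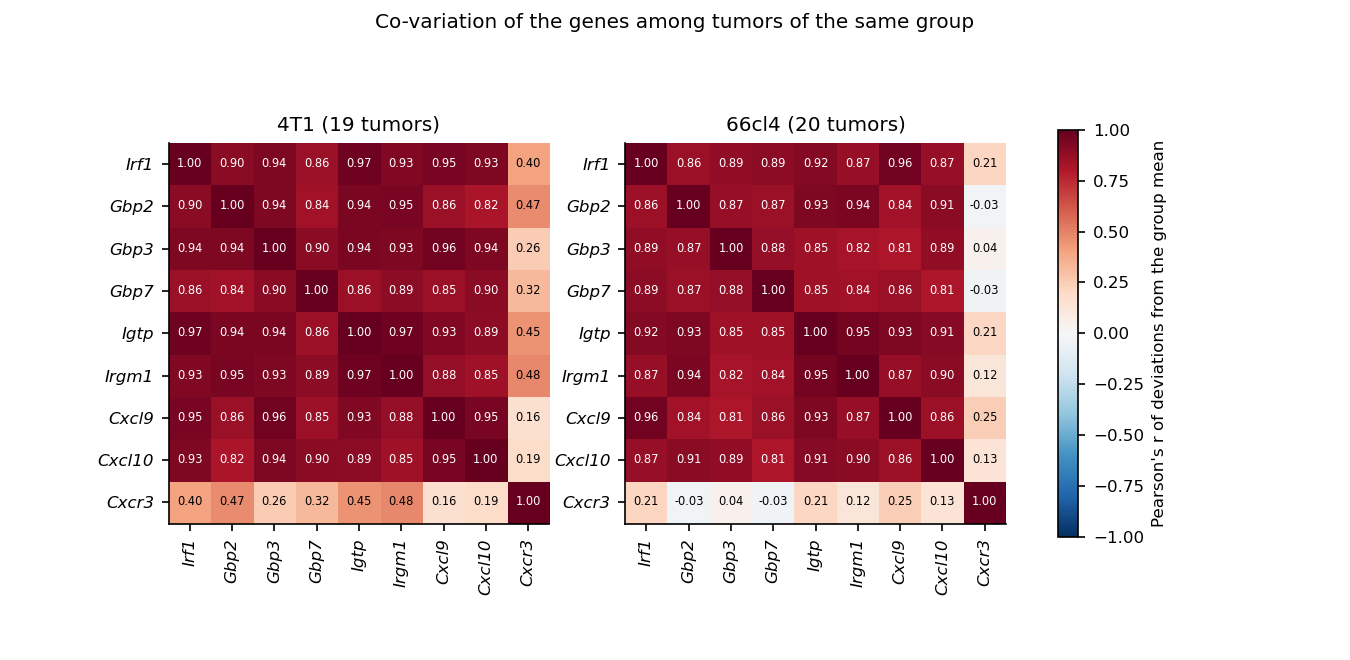
Pearson's r between the 9 genes for deviations from the group mean, in 19 4T1 tumors (left) and 20 66cl4 tumors (right); red is positive and blue negative. All pairs without Cxcr3 are at 0.806 or above in both models, while those of Cxcr3 reach at most about 0.48 in 4T1 and 0.25 in 66cl4.

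The spread itself was larger in 4T1 for each gene. The SD within groups was 1.01 in 4T1 and 0.65 in 66cl4 for Cxcl9, 0.83 and 0.30 for Gbp2, 0.45 and 0.18 for Irf1, and 0.34 and 0.14 for Cxcr3 on the VST scale. The tumors that carried this spread were mostly the same for all genes. In 4T1, the highest tumor was tumor 5 for 7 of 9 genes in the untreated group, tumor 2 for 8 of 9 upon anti-PD-1, tumor 5 for 9 of 9 upon chitin and tumor 5 for 7 of 9 upon chitin + anti-PD-1. In 66cl4, it was tumor 4 for 8 of 9 in the untreated group, tumor 2 for 8 of 9 upon anti-PD-1 and tumor 5 for 8 of 9 upon chitin. Upon chitin + anti-PD-1, tumors 2 and 4 were each above the group mean for 9 of 9 genes. In 7 of the 8 groups the tumor with the most Cxcr3 was not the one with the most Cxcl9.

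The genes whose deviations were most like those of the 9 were mostly in the lists of the same pathway. For the mean of the 9, they included Gbp2b (r = 0.97, Spearman's rho = 0.98, n = 39 tumors), Gbp10 (0.97 and 0.97), Gbp6 (0.97 and 0.98) and Irgm2 (0.96 and 0.97). For Irf1, they included Gbp10 (r = 0.95) and Gbp6 (0.94), for Gbp2 they were Mir6381 (0.97), Gbp2b (0.97) and Gbp10 (0.94), and for Cxcl9 they included Gbp5 (0.96) and Gbp10 (0.93). Mir6381 overlaps Gbp2 on the opposite strand, so its values may not be independent of those of Gbp2. Cxcr3 was most like Plek2 (r = 0.71), Gosr2 (0.71) and Sfn (0.70), none of which is in the IFN-γ lists, and in 66cl4 alone these were at 0.21, 0.55 and 0.30.

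Ifng itself varied with the 9 genes. Its deviations correlated with the mean of the 9 at r = 0.87 over 39 tumors, 0.92 in 4T1 and 0.58 in 66cl4, where most tumors had few or no Ifng reads. Of the marker lists, the median r was 0.38 for T cells, 0.50 for NK and cytotoxic cells, -0.11 for macrophages and 0.26 for epithelium over 39 tumors. It was 0.35 for proliferation and -0.32 for endothelium, and the remaining lists lay from -0.13 (B cells) to 0.09 (neutrophils). By model, the median r was 0.36 in 4T1 and 0.55 in 66cl4 for T cells, 0.55 and 0.37 for NK and cytotoxic cells, -0.21 and 0.43 for macrophages, and 0.30 and 0.05 for epithelium, so that the sign for macrophages was not the same in both models. For proliferation it was 0.56 in 4T1, the highest of the marker lists there, and -0.34 in 66cl4. For endothelium it was -0.34 and -0.35.

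**Figure D5:**
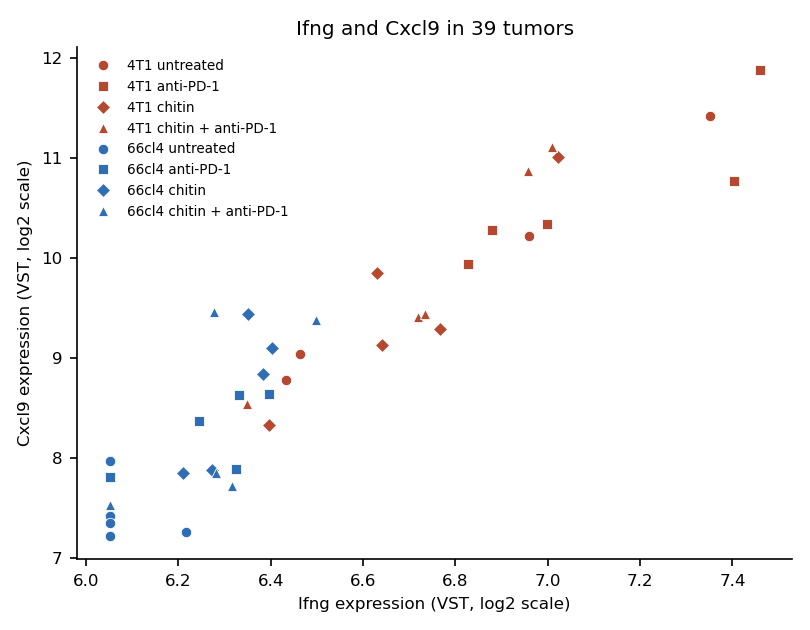
Expression of Cxcl9 against that of Ifng (both VST, log2 scale) in 39 tumors, with 4T1 in red, 66cl4 in blue and 1 symbol per treatment; the lowest value at the left stands for 0 reads. Within 4T1, the tumors with more Ifng had more Cxcl9, while in 66cl4 Cxcl9 spanned 7.22 to 9.46 over 0 to 6 Ifng reads.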

How the data were processed

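RNA was taken from whole primary tumors, 1 library per tumor. According to the study's methods, TruSeq libraries were sequenced as paired reads of 150 bp, aligned to mm10 with HISAT2 and counted per gene with strand information, and weakly covered genes were dropped before deposition. The authors deposited variance-stabilized values of DESeq2 on a log2 scale, for 14318 genes. Tool versions and the gene annotation are not given in the sources used here. Untreated 4T1 tumor 3, removed by the authors, is not analysed here.

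The transformation was inverted, and 100% of values gave whole reads (tolerance 0.001 reads). Differences were tested on the deposited values with limma 3.58.1 (R 4.3.3), with a mean-variance trend and a fit per model (over all 8 groups for comparisons between models), and p-values were adjusted after Benjamini-Hochberg over all genes. They measure the spread between these tumors. Each tumor entered as a separate replicate. If tumors shared a mouse, they were not independent, and the errors and p-values may be too small. limma-voom on the recovered reads, other scalings and filters, equal depth (5105898 reads per tumor), a replicate block and leaving out each tumor were alternatives. The analysis was tested on simulated data, with 200 genes drawn from all 14318 and normal noise of each gene's own spread. For anti-PD-1 against untreated 4T1 tumors, 44% of VST differences of 0.5 and 82.5% of those of 1 were called. In 66cl4 it was 86% and 99.5%. The 9 genes were not simulated separately, so a gene of the 9 that was not called may still differ. Total reads ran from 5105898 to 14800352 per tumor, and read intervals and limits cover counting error only. The 9 genes and all lists were chosen with earlier results of these data known. Of the pathway lists, Ifng, its receptor chains and Socs1 were always named (another such gene is not reported here), and otherwise up to 4 genes with the largest difference past the threshold. The genes most like the 9 were ranked by Pearson's r of deviations from group means. Gene positions and promoters came from RefSeq (GRCm38.p6), where all 9 genes matched. Lengths, each the union of all annotated exons of a gene, came from GENCODE M21, where shared stretches and overlaps were also searched. Python 3.11.15 with numpy 2.4.6, scipy 1.17.1 and pandas 2.3.3 was used.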

Additional observations from a re-analysis of the deposited data

Results flagged for a closer look

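In 72 sets of a gene within a group, the gap between the highest or lowest tumor and its nearest neighbor was set against the whole range of the group (Dixon's test). For 3 the gap was larger than the 95% limit, where chance gives about 1 in 20. The 3 were all in 66cl4. Gbp2 was at 9.65 (VST) in anti-PD-1-treated tumor 2, the highest of its group. Cxcl9 was at 7.97 in untreated tumor 4, and Cxcr3 at 6.93 in untreated tumor 5.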

How the results depend on the processing

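The count of the 9 genes that passed the test was the same under every alternative in all 19 comparisons, at 9 in both comparisons between the models and at 0 in the 17 of treatments. With the replicate number as a block it was 9, 9 and 0 as well, and the block changed no call. Deviations of same-numbered tumors correlated at -0.39 to 0.45 in 4T1 and -0.30 to 0.54 in 66cl4. Those of differently numbered tumors correlated at -0.57 to 0.68 and -0.49 to 0.525. In 4T1, 11 of 27 same-numbered and 32 of 108 other pairs were over 0.1. In 66cl4, it was 11 of 30 and 31 of 120. Whether the numbers stand for more than names is not given in the labels. Of the 52 differences of single genes that were followed, all but 2 kept their direction in every setting. Among treatment comparisons within 4T1, only Cxcl9 and Cxcl10 were followed, so the directions of the other genes there were not checked. While 1263 alternative values kept their direction and call, 3 reversed, all for chitin against untreated 4T1 tumors. Upon leaving out 1 tumor, Cxcl9 ranged from -0.71 to 0.18 and Cxcl10 from -0.51 to 0.22. Cxcl9 was above 0 without untreated tumor 5, and Cxcl10 without untreated tumor 5 (0.22) or chitin-treated tumor 1 (0.02). Their sign in 4T1 upon chitin is therefore undetermined. With weights per tumor, limma called 960 genes for anti-PD-1 in 4T1 and 185 for chitin-containing groups of 66cl4, though none of the 9. The smallest adjusted p of the 9 genes over all alternatives was 0.0935 for chitin, 0.197 for chitin + anti-PD-1 and 0.586 for anti-PD-1 in 66cl4. Few reads limited Ifng in 66cl4 and, to a lesser degree, Cxcr3 and Cxcl10.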

Other observations

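Other genes overlap the 9 or lie next to them, and they were chosen after their values were seen. Mir6381, annotated on the opposite strand of Gbp2 with 24 shared bases, had 92 to 710 reads in 4T1 and 41 to 166 in 66cl4 tumors. Its deviations from group means correlated with those of Gbp2 at r = 0.97 over 39 tumors. Art3, on the opposite strand of Cxcl10 with 133 shared exon bases, had 18 to 176 reads in 4T1 and 3 to 48 in 66cl4, and correlated with Cxcl10 at r = 0.67. Irgm2, on the same strand as Igtp with 162 shared exon bases, correlated with it at r = 0.96. Reads of Irgm2 and Igtp can lie in shared bases, so their values are not independent of each other. Counting with strand information would keep reads of Mir6381 and Art3 apart from those of Gbp2 and Cxcl10. Whether it did so was not tested, so those values may not be independent either.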
